A study of Mus musculus with 6 samples.

Results

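The 8 genes examined here, Trp63, Id4, Bcl11a, Bcl11b, Procr, Tspan8, Mef2c and Prdm1, are known for the identity of mammary basal, stem or progenitor cells. They were chosen by symbol, and all 8 were found among the 55291 symbols of the count tables and among the 17268 genes that passed the filter on low counts. Their RNA was followed through 6 libraries in 3 groups of 2: TEB-distal Gpr125+ cells, nipple-proximal Gpr125+ cells and cells labelled Gpr125-negative. TEB stands for terminal end bud, the growing tip of a duct in the pubertal gland, and Gpr125 is the adhesion receptor encoded by Adgra3. All cells came from female Adgra3-Lz/+ mice of 6 weeks, in which 1 Adgra3 allele expresses lacZ, so the negative libraries carry the same allele as the others. Each library pooled the abdominal glands of 5 mice according to the labels, whereas the study's methods state fewer per preparation. After removal of cells positive for CD31, CD45 or Ter119, cells with high CD49f (integrin α6, a surface protein of basal cells) were sorted by whether they cleaved FDG, a fluorogenic substrate of β-galactosidase. The glands had been cut into a distal part and a part near the nipple, but the labels name no region for the negative libraries. Nothing in the labels says that same-numbered libraries share animals, and p-values measure only the spread between these libraries.

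The mammary duct has an outer basal layer of contractile cells and an inner luminal layer. Basal identity rests on transcription factors, above all p63, and several surface proteins have been used to enrich cells that regrow a gland. Trp63 encodes p63, the p53 relative that basal cells of many epithelia need. Id4 encodes an inhibitor of DNA binding, which pairs with E proteins and keeps them from DNA. Bcl11a and Bcl11b encode related zinc-finger factors, linked respectively to progenitor upkeep and to quiescent stem cells. Procr encodes the endothelial protein C receptor, a marker of a mammary stem cell population that endothelium also expresses. Tspan8 encodes a tetraspanin of the cell membrane, used to mark quiescent cells near the nipple. Mef2c encodes a MADS-box factor of muscle, endothelial and lymphoid cells. Prdm1 encodes the repressor Blimp1, known from plasma cells and from rare mammary progenitors.

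The deposited counts summed to between 20134890 and 37296640 per library. A count of 0 in a library allows up to 3 counts, or 0.0804 to 0.149 CPM before normalization (CPM scales each count by its library's total), a limit that covers counting error only. Levels are given as normalized CPM, that is CPM after TMM scaling between libraries. Replicates differed widely, with Pearson's r across genes of 0.733 for the negative pair, 0.791 for the TEB-distal pair and 0.933 for the nipple-proximal pair. Of genes with at least 100 counts in 1 library of a group, 8.01% were at 0 in the other negative library, 2.28% in the other TEB-distal library and 0.00987% in the other nipple-proximal library. Adgra3 itself was at 35.7 and 18.6 normalized CPM in the pair labelled Gpr125-negative, against 15.0 and 4.83 for the TEB-distal pair and 19.2 and 12.3 for the nipple-proximal pair. The sorted gene was therefore not lower in the libraries labelled negative, and every direction drawn against them, named the negative libraries after their labels, rests on those labels. The 10 basal markers, such as Krt5 and Acta2, were detected in every library and summed to between 3328 and 22632 normalized CPM. The 10 endothelial markers, such as Emcn and Tie1, summed to 1343 and 839 normalized CPM in the negative libraries, although CD31-positive cells had been removed.

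The 8 genes differed widely in abundance. Per kilobase of exon in GENCODE M21, the mean over the 6 libraries ran from 584 normalized CPM per kb for Procr to 0.0974 for Bcl11a. Id4 came after Procr with 24.3, then Trp63 with 2.13, Tspan8 with 1.18, Mef2c with 0.823, Prdm1 with 0.629 and Bcl11b with 0.364. Procr and Id4 did not overlap, since the lowest Procr library was at 234 and the highest Id4 library at 48.8 normalized CPM per kb. Id4 and Trp63 did not overlap either, with a lowest value of 10.6 for Id4 and a highest of 6.92 for Trp63. From Trp63 downwards, the ranges of each pair of neighbours in this order overlapped. The low end rested on few reads, since Bcl11a had at most 53 counts in any library.

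**Figure D1:**
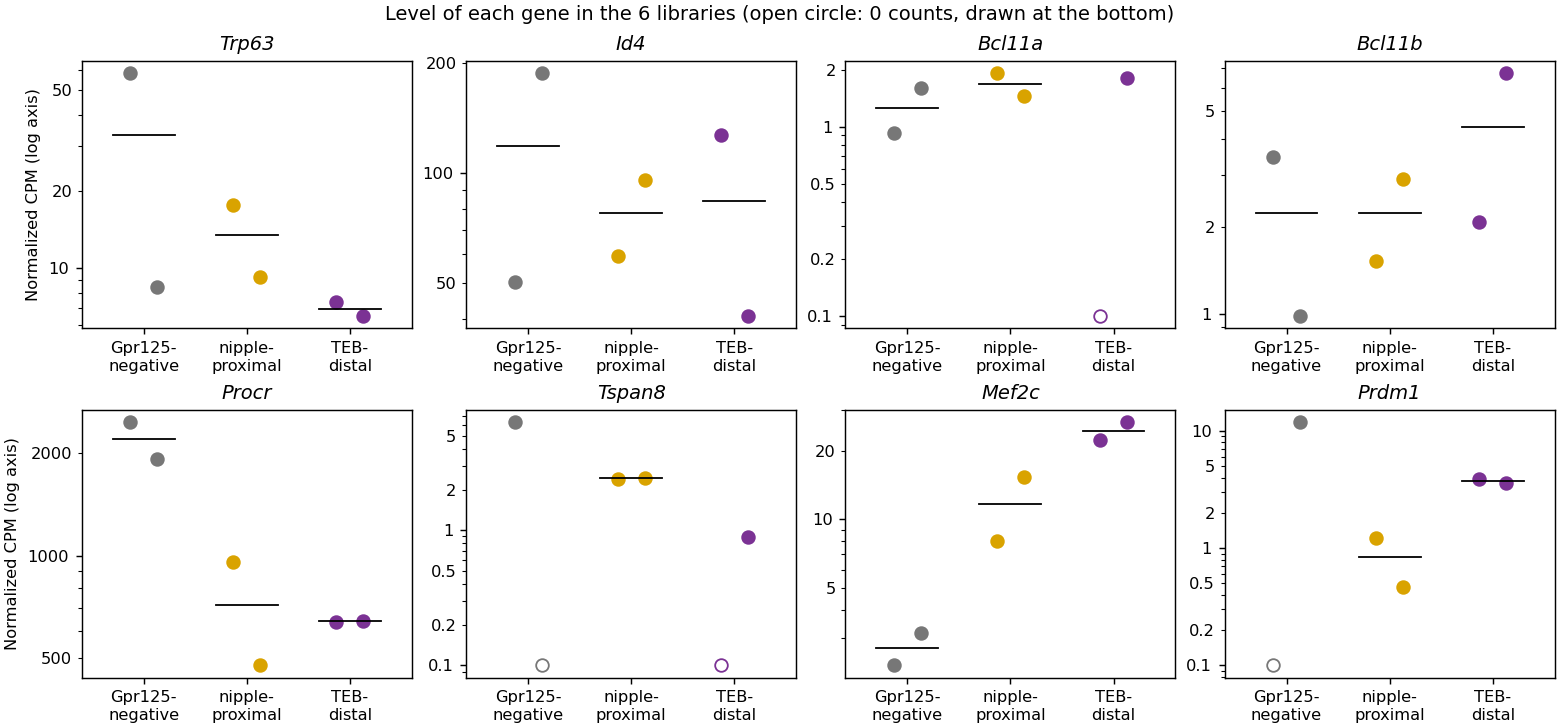
Normalized CPM on a log axis for each of the 8 genes, with 1 point per library (grey, negative; gold, nipple-proximal; purple, TEB-distal) and a line at the mean of a pair with no 0. Open circles are libraries with 0 counts, drawn at the bottom. The Mef2c pairs lie at separate heights, 2.28 and 3.15, then 8.00 and 15.3, then 22.3 and 26.6, while the Procr pair labelled negative, at 2470 and 1932, lies above the other 4 libraries.

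Procr, the receptor for protein C, was among the most abundant transcripts of every library. It held rank 17 and rank 53 of 17268 genes in the negative libraries and ranks between 111 and 366 in the Gpr125+ libraries. Its 114822 and 57042 counts in the negative libraries were 2470 and 1932 normalized CPM. The TEB-distal libraries had 637 and 642 normalized CPM, and the nipple-proximal libraries had 957 and 474. Both negative libraries were thus above all 4 Gpr125+ libraries, the TEB-distal pair was nearly equal, and it lay inside the range of the nipple-proximal pair. Against the negative libraries, the Procr log2 fold change was -1.78 ± 0.76 (SE, n = 2 libraries a group) in TEB-distal cells, with an interval from -3.55 to -0.02. With edgeR's quasi-likelihood test, its unadjusted p was 0.0482 and its adjusted p over all genes tested 0.821. In nipple-proximal cells the difference was -1.62 ± 0.76, with an adjusted p of 1 by the same edgeR test. Neither difference passed the test. Between the regions the Procr difference was -0.16, with an interval from -1.88 to 1.55, so a change of 2-fold in either direction lies within it.

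Mef2c, the MADS-box factor, differed from the negative libraries in the opposite direction. It had 106 and 93 counts in the negative libraries, 163 and 325 in the nipple-proximal pair and 571 and 781 in the TEB-distal pair. As normalized CPM these were 2.28 and 3.15, then 8.00 and 15.3, then 22.3 and 26.6. No library of 1 group overlapped the next, so Mef2c was lowest in the negative pair and highest in the TEB-distal pair. This full order was looked for after the values had been seen, and the share of genes in any full order was not computed. This order itself was shown by 2.03% of the genes tested. Of the 8 genes, Mef2c was the 1 in that order. Its log2 fold change against the negative libraries was 3.17 ± 0.97 (SE, n = 2 a group) in TEB-distal cells, with an interval from 0.94 to 5.40. The unadjusted p was 0.0113 and the adjusted p 0.803 with edgeR's quasi-likelihood test. In nipple-proximal cells the Mef2c difference was 2.10 ± 0.93, with an adjusted p of 1 from edgeR. Between TEB-distal and nipple-proximal cells it was 1.07 ± 0.90, with an interval from -1.01 to 3.14 and an adjusted p of 1 from edgeR. DESeq2 fitted on all 6 libraries gave the first of these differences as 3.12 with an adjusted p of 0.00934, which passed, whereas DESeq2 on the 4 libraries compared gave 3.11 with an adjusted p of 0.131, which did not.

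Trp63 stood out in 1 library. It had 2700 counts in negative library 1 and between 188 and 359 in the other 5. The levels were 58.1 and 8.40 normalized CPM in the negative libraries, 7.33 and 6.47 in the TEB-distal pair and 17.6 and 9.23 in the nipple-proximal pair. Both TEB-distal libraries were the lowest of the 6, while negative library 2 was just above them and below both nipple-proximal libraries. The Trp63 log2 fold change in TEB-distal against negative cells was -2.27 ± 1.07 (SE, n = 2 a group), with an adjusted p of 0.848 from edgeR. Without negative library 1 it was -0.42. In nipple-proximal against negative cells it was -1.31, and it turned to 0.55 without that library. GENCODE M21 lists 8 Trp63 transcripts, and counts per gene do not separate the isoforms that basal cells use from the others.

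Id4, the inhibitor of E proteins, was well measured in all libraries and showed no separation between groups. Its 6 values were 50.4 and 188 normalized CPM in the negative pair, 127 and 40.6 in the TEB-distal pair and 59.6 and 95.7 in the nipple-proximal pair. The highest and the lowest library of each Gpr125+ pair fell within the range of the negative pair or just under it, and all 3 ranges overlapped. The Id4 log2 fold changes were -0.51, -0.62 and 0.11 for TEB-distal against negative, nipple-proximal against negative and TEB-distal against nipple-proximal cells, with edgeR adjusted p of 1 in each. The first had an interval from -2.54 to 1.53. Id4 exons overlap those of A330033J07Rik and Gm49291 on the other strand, and reads were counted without strand, but these 2 genes had at most 7 counts in any library.

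Bcl11b and Bcl11a were low throughout. Bcl11b was at 3.46 and 0.982 normalized CPM in the negative pair, 2.07 and 6.74 in the TEB-distal pair and 1.52 and 2.92 in the nipple-proximal pair. The Bcl11b ranges overlapped in every comparison, and TEB-distal library 2 was the highest. Its log2 fold change in TEB-distal against negative cells was 0.98, with an interval from -2.66 to 4.62. Bcl11a had 43 and 47 counts in the negative pair, 0 and 53 in the TEB-distal pair and 39 and 31 in the nipple-proximal pair. Apart from the library at 0, its levels lay between 0.925 and 1.92 normalized CPM. Within the TEB-distal pair, Bcl11a was at least 15.4-fold higher in library 2, taking 3 counts for the library at 0. The Bcl11a log2 fold change in TEB-distal against negative cells was -0.48, with an interval from -5.53 to 4.58. Neither gene passed the test in any comparison, and both intervals include changes of more than 2-fold in either direction.

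Tspan8 and Prdm1 were split within the negative pair, in opposite directions. Tspan8 had 292 and 0 counts in the negative pair, 0 and 26 in the TEB-distal pair and 49 and 52 in the nipple-proximal pair. The nipple-proximal libraries were nearly equal at 2.41 and 2.45 normalized CPM, and both were above the TEB-distal libraries, at 0 and 0.885. The log2 fold change of Tspan8 in TEB-distal against nipple-proximal cells was -2.44 ± 2.79 (SE, n = 2 a group), with an adjusted p of 1 from edgeR. Prdm1 had 0 and 350 counts in the negative pair, 100 and 106 in the TEB-distal pair and 25 and 10 in the nipple-proximal pair. At 3.90 and 3.61 normalized CPM, both TEB-distal libraries were above the nipple-proximal libraries, at 1.23 and 0.471. The Prdm1 difference between these regions was 2.14 ± 2.43, with an adjusted p of 1 from edgeR. Taking 3 counts for the library at 0, Tspan8 was at least 61.8-fold higher in negative library 1 than in library 2, and Prdm1 at least 184-fold higher in library 2 than in library 1. Against the negative group, the fitted differences of both genes therefore turned sign with the library left out. Without negative library 1 the fitted TEB-distal difference of Tspan8 went from -2.81 to 6.50, and without negative library 2 that of Prdm1 went from -0.66 to 9.74, each then set against a lone library at 0, so these sizes depend on the prior count and are no bounds.

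**Figure D2:**
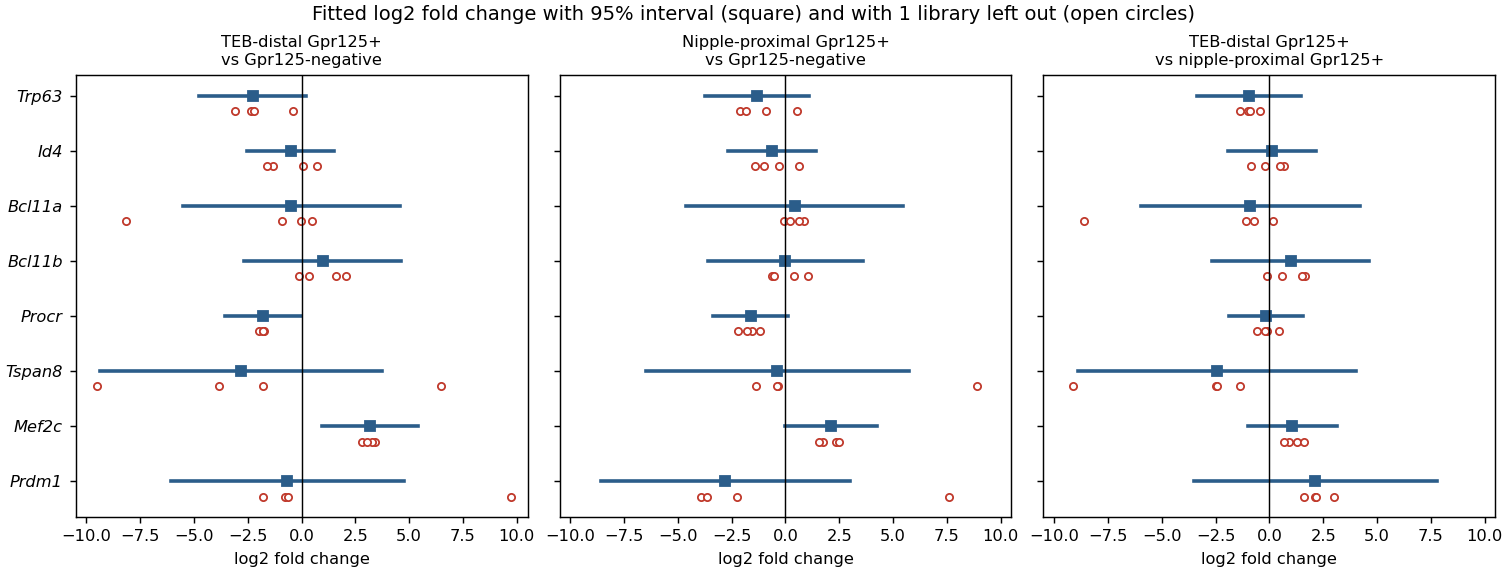
Log2 fold changes of the 8 genes in the 3 comparisons from edgeR's quasi-likelihood fit (squares, with 95% intervals) and from fits with 1 library left out (open red circles). The Mef2c circles stay to the right of 0 and the Procr circles against the negative libraries stay to the left, whereas those of Tspan8 reach -9.49 and 6.50 in TEB-distal against negative cells.

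The counts of members that stood apart are set here beside those of all genes tested. In TEB-distal against negative cells, 0 of 8 passed edgeR's call of an FDR under 0.1 and at least 2-fold, and 0% of all genes tested did. At an unadjusted p under 0.05, Mef2c and Procr passed, 2 of 8, beside 6.05% of all genes. Both TEB-distal libraries exceeded both negative libraries for Mef2c, 1 of 8 beside 14% of all genes, and Trp63 and Procr were lower in the same sense, 2 of 8 beside 10%. DESeq2 on the 4 libraries compared called 0 of 8 beside 4.33% of all genes with an adjusted p, and on all 6 libraries 1 of 8, Mef2c, beside 5.43%.

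In nipple-proximal against negative cells, edgeR again called 0 of 8 beside 0% of all genes, and 0 of 8 had an unadjusted p under 0.05 beside 3.55%. Mef2c alone of the 8 was higher in both libraries, beside 19.9% of all genes, and Procr alone was lower, beside 10.8%. DESeq2 called 0 of 8 on the 4 libraries, beside 2%, and 0 of 8 on all 6, beside 1.97%. Both comparisons share the negative libraries, so their values for a gene are not independent. With 2 libraries against 2, the smallest two-sided p that an exact permutation test allows is 0.333.

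In TEB-distal against nipple-proximal cells, which does not use the negative libraries, edgeR called 0 of 8 beside 0% of all genes, and 0 of 8 reached an unadjusted p under 0.05 beside 2.21%. Mef2c and Prdm1 were higher in both TEB-distal libraries, 2 of 8 beside 15.2% of all genes. Trp63 and Tspan8 were lower in both, 2 of 8 beside 18.3%. DESeq2 called 0 of 8 on the 4 libraries, beside 2.26%, and 0 of 8 on all 6, beside 0.844%. The median log2 fold change of the 8 genes was -0.58, -0.50 and -0.03 in the 3 comparisons in this order, and that of all genes tested was 0.03, -0.003 and 0.06.

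Markers of other cells moved with some of these values. The 10 endothelial markers summed to 1343 and 839 normalized CPM in the negative libraries. They summed to 219 and 24.0 in the nipple-proximal pair and 17.5 and 20.8 in the TEB-distal pair. In TEB-distal and nipple-proximal against negative cells, 10 of 10 were below 0, whereas 51.1% and 49.6% of all genes were above 0. Both libraries were lower than both negative libraries for 8 and 7 of 10, beside 10% and 10.8% of all genes. In these comparisons edgeR called 0 of the 10, and DESeq2 on the 4 libraries called 8 and 2, beside 4.33% and 2%. Endothelium expresses Procr, which was also highest in the negative pair. Procr was at 637 and 642 normalized CPM in the TEB-distal libraries, where the 10 markers together reached 20.8 at most and 2 and 4 of them had no more than 3 counts, and the part of endothelial RNA in the Procr difference was not tested. In these bulk samples, fewer cells of a type and less RNA per cell cannot be told apart. Mef2c, which endothelium also expresses, was lowest where those markers were highest, and the part of endothelial RNA in its difference was not tested.

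Lymphoid cells express Mef2c as well, and some of their markers were found at low levels, although cells positive for CD45, the product of the T cell list's Ptprc, had been removed. The 6 T cell markers summed to 2.78 and 3.29 normalized CPM in the negative pair, 11.0 and 14.6 in the nipple-proximal pair and 19.8 and 40.7 in the TEB-distal pair. Lck made up most of this sum in 3 of the 4 Gpr125+ libraries, with 7.86 and 9.27 in the nipple-proximal pair and 34.7 in TEB-distal library 2, against 5.19 in TEB-distal library 1. Cd3e, which defines T cells, had 0 counts in both nipple-proximal libraries and at most 6 in any library. Ptprc was at 1.98 and 2.68 in the negative pair, 2.75 and 4.28 in the nipple-proximal pair and 9.24 and 2.08 in the TEB-distal pair. Its TEB-distal values overlapped those of both other pairs, while both nipple-proximal libraries were above both negative libraries. The 4 B cell markers summed to 0.602 and 0, then 1.62 and 2.78, then 1.52 and 7.29, with 4 of 4 at 0 counts in negative library 2. This sum was lower in TEB-distal library 1 than in both nipple-proximal libraries, unlike Mef2c. The 10 basal markers summed to 3328 and 3533 in the negative pair. Both Gpr125+ pairs were higher, at 9352 and 14871 for the nipple-proximal and 3899 and 22632 for the TEB-distal libraries. In TEB-distal and nipple-proximal against negative cells, 9 and 10 of 10 had fitted differences above 0, with medians of 2.55 and 1.91. Both libraries exceeded both negative libraries for 6 and 9 of 10, beside 14% and 19.9% of all genes. In each comparison edgeR called 0 of them and DESeq2 on the 4 libraries called 1. The part of lymphoid or basal cells in the Mef2c difference was not tested. The 6 myeloid markers summed to less in the Gpr125+ libraries, from 14.6 to 24.3 normalized CPM, than in the negative libraries, at 64.7 and 60.3. Cd14 alone was at 56.0 in negative library 1 and at 17.0 in negative library 2. Of the 6, 3 had fitted differences above 0 in TEB-distal and 0 in nipple-proximal against negative cells. Procr was also higher in the negative pair, and the part of myeloid RNA in its difference was not tested. The sums of the 6 fibroblast markers, from 27.2 to 165 normalized CPM, and of the 7 luminal markers, from 1429 to 2981, overlapped between the negative pair and each Gpr125+ pair. Between the regions the fibroblast sums did not overlap, at 81.9 and 165 for the TEB-distal pair and 68.3 and 50.0 for the nipple-proximal pair. There, 6 of 6 fibroblast markers had fitted differences above 0, with a median log2 fold change of 3.11, edgeR called 0 with 1 at an unadjusted p under 0.05, and DESeq2 on the 4 libraries called 2. Prdm1 was also higher in both TEB-distal than in both nipple-proximal libraries, and the part of fibroblast RNA in its difference was not tested. Pericyte markers were at 7.68 and 24.4 in the negative pair, 1.57 and 19.8 in the nipple-proximal pair and 2.11 and 0.034 in the TEB-distal pair.

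**Figure D3:**
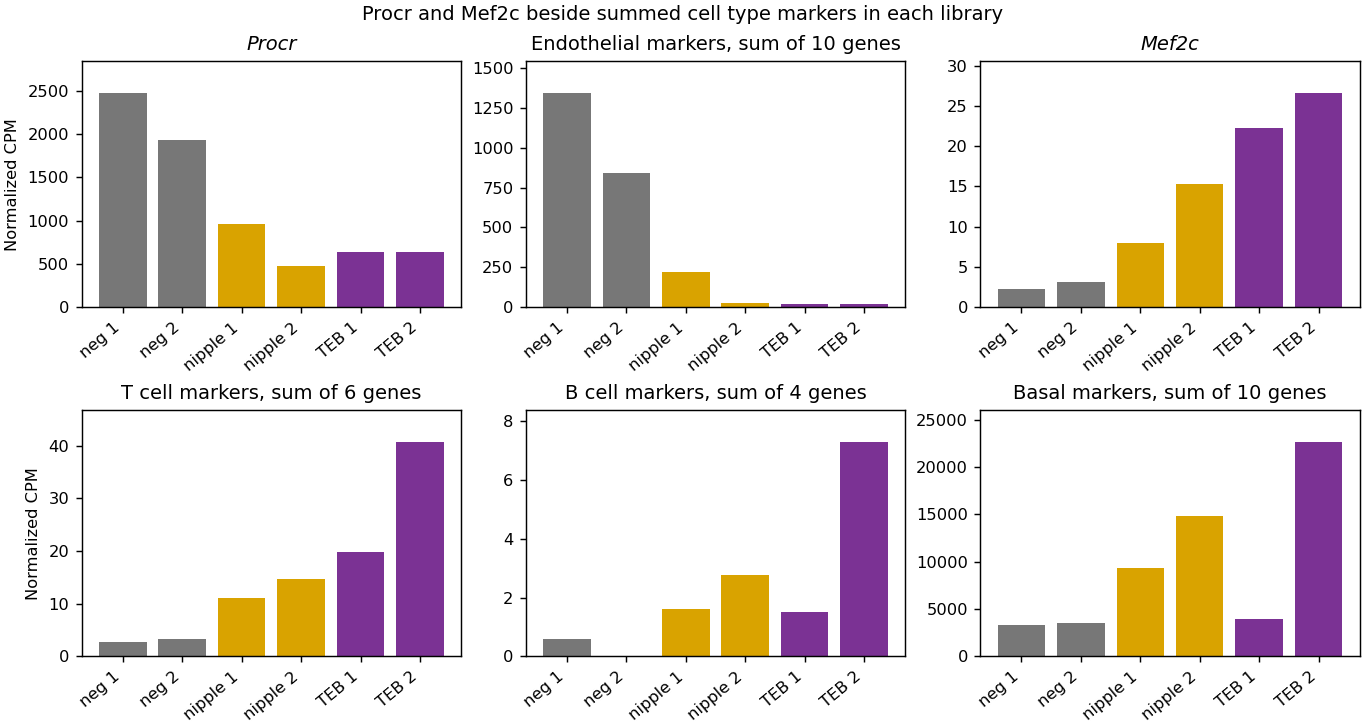
Normalized CPM of Procr and Mef2c in each library beside the summed normalized CPM of endothelial, T cell, B cell and basal markers, with bars from 0 (grey, negative; gold, nipple-proximal; purple, TEB-distal). Endothelial markers stand at 1343 and 839 in the negative pair and at 17.5 and 20.8 in the TEB-distal pair, where Procr stands at 637 and 642.

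Genes tied to the 8 were described by lists chosen by function. Of 12 genes known as p63 targets, such as keratins and adhesion genes of basal cells, 0 were called by edgeR in any comparison, and 10 and 9 had fitted differences above 0 in TEB-distal and nipple-proximal against negative cells, beside 51.1% and 49.6% of all genes tested. Trp63 was at -2.27 and -1.31 in these comparisons, and at -0.42 and 0.55 without negative library 1. Lama3, a chain of the basement membrane protein laminin, had an unadjusted p of 0.0261 and 0.0192 in edgeR's test. It was at 89.8 and 92.0 normalized CPM in the negative pair, 251 and 396 in the TEB-distal pair and 361 and 354 in the nipple-proximal pair. Its log2 fold changes were 1.83 ± 0.67 and 1.98 ± 0.67, with edgeR adjusted p of 0.803 and 1. It was the 1 gene of the list with an unadjusted p under 0.05 in either comparison, and DESeq2 on the 4 libraries called 0 of 12 in all 3 comparisons. Krt5 and Krt14 of this list are also among the basal markers. The list's median log2 fold change was 0.62, 0.58 and -0.10 in the 3 comparisons.

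Of 15 other basal and stem cell genes, 14 passed the filter, 0 were called by edgeR, and 6, 9 and 6 had fitted differences above 0. Sox10, a neural crest factor that mammary progenitors also use, was at 106 and 27.6 normalized CPM in the negative pair. It was lower in both TEB-distal libraries, at 27.8 and 35.0, than in the nipple-proximal libraries, at 101 and 68.3, with a difference of -1.43 ± 0.79 and an edgeR adjusted p of 1. Axin2 and Dll1 went the other way there, also without overlap, with differences of 2.18 ± 1.57 and 1.08 ± 0.81. Between the regions, 3 of the 14 were higher and 4 lower without overlap, beside 15.2% and 18.3% of all genes. Of 13 luminal lineage regulators, 0 were called and 9, 6 and 8 were above 0. In negative library 2, 4 of these 13 were at 0 counts, compared with 0 of 13 in library 1. Of all genes tested, 18.5% were at 0 in negative library 2 and 5.84% in library 1. Genes with a count numbered 17401 in library 2 and 21963 in library 1. Elf5, a luminal progenitor factor, had 138 and 0 counts in this pair, the same split as Tspan8, whereas Kit of this list had 457 and 599. In both of these lists, 0 genes had an unadjusted p under 0.05 in edgeR's test, and DESeq2 on the 4 libraries called 0, in all 3 comparisons.

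Among 21 paralogs and binding partners, 19 passed the filter, 0 were called by edgeR and 8 had differences above 0 in each comparison. Tcf4, an E protein that Id4 can bind, was at 58.9 and 69.5 normalized CPM in the negative and 14.7 and 42.3 in the TEB-distal pair, with a difference of -1.17 ± 0.75 and an edgeR adjusted p of 0.993. The other E proteins of the list, Tcf3 and Tcf12, had differences of -0.18 and 0.07 in that comparison, and their pairs overlapped. Mef2b, a paralog of Mef2c, had 80 and 0 counts in the negative pair, 47 and 272 in the TEB-distal pair and 21 and 148 in the nipple-proximal pair. Hdac9, a histone deacetylase that binds MEF2 factors, had 10 and 1783 counts in the negative pair, 190 and 52 in the nipple-proximal pair and 0 and 0 in the TEB-distal pair. Its unadjusted p in TEB-distal against negative cells was 0.00861 and its adjusted p 0.803 with edgeR, whereas DESeq2 on the 4 libraries gave an adjusted p of 1.83e-04. Hdac9 was also the 1 gene of this list that DESeq2 on the 4 libraries called between the regions, with an adjusted p of 2.72e-04. Nearly all of its negative reads were in 1 library. No other gene of the list had an unadjusted p under 0.05 in edgeR's test or was called by DESeq2 on the 4 libraries.

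**Figure D4:**
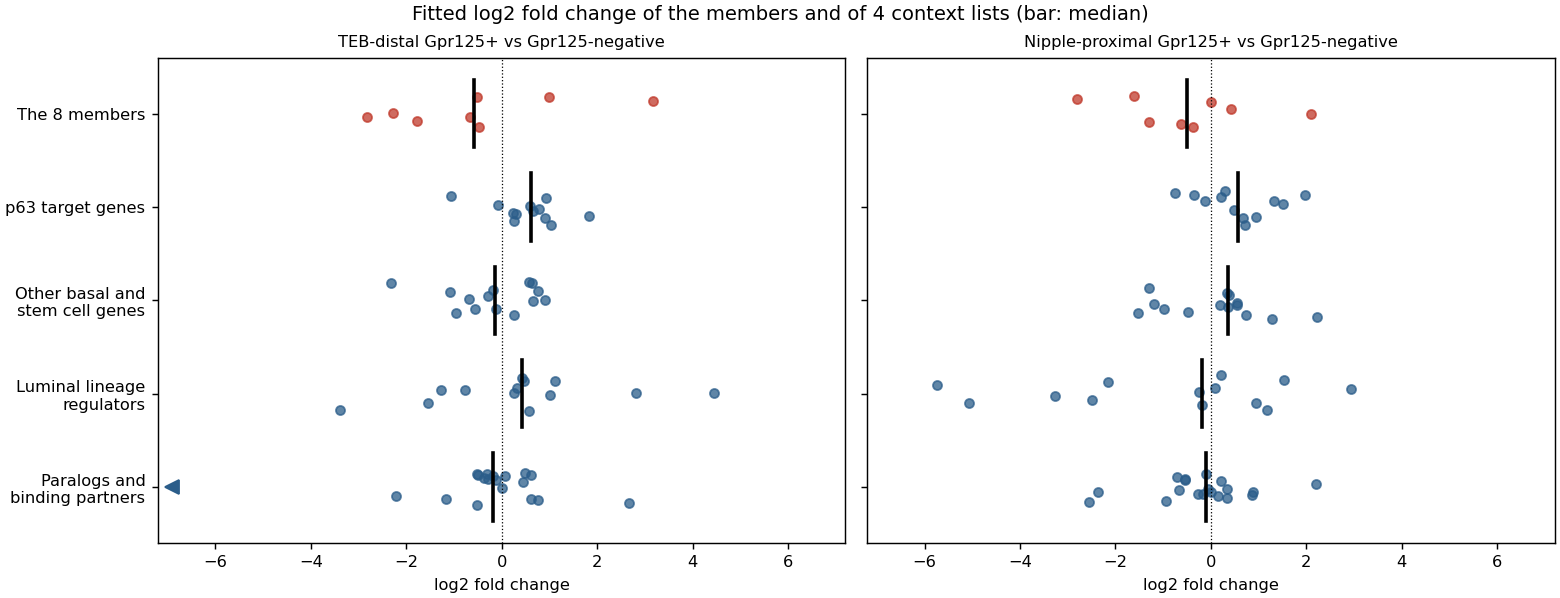
Fitted log2 fold changes of the 8 genes (red) and of the genes of 4 lists (blue) against the negative libraries, with a black bar at each median. The triangle at the left edge is Hdac9, which had 0 counts in both TEB-distal libraries and whose fitted value is no bound. The median of the 8 genes lies at -0.58 and -0.50, and that of the p63 targets at 0.62 and 0.58.

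Patterns most like each gene over the 6 libraries were ranked by Pearson's r of log2 CPM among 8171 genes, as a description over 6 points that share library and depth. Mef2c was most like Iqgap1 (r = 0.985), and Procr most like Vps4a (r = 0.987). Trp63 was most like Snx11 (r = 0.991), Id4 most like Col4a3bp (r = 0.999) and Prdm1 most like Cav1 (r = 0.995). Tspan8 was most like Retreg2 (r = 0.997), Bcl11a most like Cct7 (r = 0.994) and Bcl11b most like Slc25a47 (r = 0.982). Such values were common, since between 34 and 493 genes had an r above 0.9 with a given member.

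Promoters are shown for Procr and Mef2c, whose groups stood apart in both comparisons with the negative libraries, and for Id4, since Id proteins act on factors that read the E-box. The sequences are RefSeq's for GRCm38.p6, on the plus strand, up to 250 bases before the annotated start and cut before the first exon in GENCODE M21. Capitals mark the E-box (CANNTG) and a loose form of the AP-1 motif (TGANTCA, with any base allowed at its centre), searched on both strands. Windows of 7 of the 8 genes were found, and for Trp63 none is shown. For Mef2c, 2 of its 3 annotated starts are given, the first and the last.
Procr, chr2:155750967-155751116: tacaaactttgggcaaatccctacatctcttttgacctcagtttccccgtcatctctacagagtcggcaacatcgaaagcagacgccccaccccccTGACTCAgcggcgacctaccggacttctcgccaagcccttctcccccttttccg
Mef2c first start, chr13:83503784-83504033: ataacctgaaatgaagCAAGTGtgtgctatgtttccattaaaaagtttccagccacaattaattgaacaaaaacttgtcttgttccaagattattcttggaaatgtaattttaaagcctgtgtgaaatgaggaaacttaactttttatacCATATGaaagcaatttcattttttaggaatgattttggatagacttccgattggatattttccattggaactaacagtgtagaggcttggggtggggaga
Mef2c last start, chr13:83573357-83573606: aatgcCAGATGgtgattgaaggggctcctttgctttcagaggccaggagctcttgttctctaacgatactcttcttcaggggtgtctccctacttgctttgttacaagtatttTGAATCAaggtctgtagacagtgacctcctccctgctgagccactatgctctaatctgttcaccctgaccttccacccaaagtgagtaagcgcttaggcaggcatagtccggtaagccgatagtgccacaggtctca
Id4, chr13:48260866-48261115: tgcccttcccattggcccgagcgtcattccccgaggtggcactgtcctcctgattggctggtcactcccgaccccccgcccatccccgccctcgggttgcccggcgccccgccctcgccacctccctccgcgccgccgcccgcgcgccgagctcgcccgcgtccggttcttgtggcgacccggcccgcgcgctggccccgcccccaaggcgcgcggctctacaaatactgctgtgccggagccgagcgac

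Procr lies at chr2:155751117-155755471, Mef2c at chr13:83504034-83667080 and Id4 at chr13:48261228-48266026, all on the plus strand of GRCm38. Of the other 5, Trp63 lies at chr16:25683763-25892102, Bcl11a at chr11:24078056-24174123 and Tspan8 at chr10:115816832-115849893 on the plus strand, and Bcl11b at chr12:107910403-108003602 and Prdm1 at chr10:44437177-44528501 on the minus strand. Over the full 250 bases, Procr had 1 AP-1 match, at -154 from the start, and 1 E-box match, at -34, which falls in an exon of GENCODE M21 and is not shown. Mef2c had 2 E-box matches before its first start, and before its last start 1 E-box and 1 AP-1 match. The Id4 window had neither motif, but 5 matches to the GC box (GGGCGG) and a GC content of 75.6%, compared with a median of 52.4% over all windows. Of 32851 RefSeq windows of this length, 66.2% held an E-box match, 6.75% an AP-1 match and 32.7% a GC box match. A match is a description of the letters in the window, and which of the Mef2c starts was used in these cells cannot be read from counts per gene.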

How the data were processed

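RNA was sequenced from 6 libraries, prepared by SMART-Seq HT without molecular identifiers. Alignment by the authors was to mm10 with STAR (2.7.3 in the submitters' processing notes, another release in the methods). They counted reads per gene with HTSeq without regard to strand, and deposited raw counts, 1 file per library. The annotation release is not given in the sources used here. The study's own tests used DESeq2.

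Tests were run with edgeR 4.0.16 under R 4.3.3, using TMM scaling, filterByExpr by group, estimateDisp and glmQLFit with robust estimation, and glmQLFTest, with all 6 libraries in 1 model and Benjamini-Hochberg adjustment over 17268 genes. A gene was called at an FDR under 0.1 and at least 2-fold. SEs came from the F statistic and log2 CPM used a prior count of 2. Total counts of 20134890 to 37296640 set a floor of 3 counts at 0.0804 to 0.149 CPM. Gene lengths and coordinates are from GENCODE M21 (GRCm38), in which 53292 of 55291 symbols were found.

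Groups follow the sample titles. The genes named are all 8 members, those among the 3 of smallest unadjusted p per list and comparison, and those of highest Pearson's r to a member with a mean log2 CPM of at least 3. The members and lists were chosen with earlier results of these data known. Alternatives were DESeq2 1.42.0 on 6 and on 4 libraries, its size factors, 2 other filters, edgeR on 4 libraries, the replicate block and leaving out each library. The scripts were tested on simulated data.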

Additional observations from a re-analysis of the deposited data

How the results depend on the processing

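Each of the 24 fold changes (8 genes, 3 comparisons) was recomputed under the alternatives, 264 values in all: 245 kept direction and side of the threshold, 18 turned direction, and 1 newly passed. The last was Mef2c in TEB-distal against negative cells with DESeq2 on all 6 libraries (3.12, adjusted p of 0.00934), so that 1 gene was called there in place of 0, and its edgeR and DESeq2 adjusted p otherwise ranged from 0.131 to 1. The cause was not tested. All 18 reversals came from leaving out 1 library, where the lone sample is assumed to vary like the other groups. The range over libraries left out, in TEB-distal against negative cells, was -1.59 to 0.73 for Id4, -8.17 to 0.50 for Bcl11a, -0.11 to 2.04 for Bcl11b, -9.49 to 6.50 for Tspan8 and -1.79 to 9.74 for Prdm1. In nipple-proximal against negative cells it was -2.11 to 0.55 for Trp63, -1.42 to 0.63 for Id4, -0.049 to 0.87 for Bcl11a, -0.64 to 1.03 for Bcl11b, -1.37 to 8.91 for Tspan8 and -3.92 to 7.62 for Prdm1. Between the regions it was -0.87 to 0.69 for Id4, -8.61 to 0.16 for Bcl11a, -0.12 to 1.67 for Bcl11b and -0.60 to 0.42 for Procr. Fitted sizes beyond 6 in either direction come from a lone library at 0 and are no bounds. In all fits run, Mef2c kept its direction in the 3 comparisons, Procr in the 2 against negative cells, Trp63 in TEB-distal against negative (-3.08 to -0.42) and TEB-distal against nipple-proximal cells, and Prdm1 and Tspan8 in the last. With the replicate block, 0 genes were called in each comparison and Mef2c was at 3.19, 2.06 and 1.13. Deviations of same-numbered libraries correlated with r of -0.03, 0.19 and -0.005, and no label ties equal numbers together, so the numbers were not taken as pairing. Within the groups, Bcl11a, Tspan8 and Prdm1 were each at 0 in 1 of 2 replicates of at least 1 group, and whether depth limited the calls was not tested.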
